A study of Drosophila melanogaster with 33 samples.

Results

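The metallothionein genes *MtnA*, *MtnB*, *MtnC*, *MtnD* and *MtnE* and the gene of their regulator, *MTF-1*, were examined for binding of Lola-I, one of the proteins encoded by *lola*, in *Drosophila melanogaster* embryos. These 6 genes were chosen by name out of 18277 annotated genes, 13968 of them protein-coding, and for each gene the Lola-I peak summits within 200 bp and within 2000 bp of an annotated transcription start site (TSS) were collected. *CG8500*, which shares the *MtnA* peak, was included beside it. The data are 2 chromatin immunoprecipitation sequencing (ChIP-seq) libraries of wild-type OregonR whole embryos aged 14 to 17 h, made with a custom rabbit polyclonal antibody against Lola-I and deposited as 1 peak list per replicate. The series has 33 samples in 12 groups, which also cover GAF, the Pol II subunit Rpb3 and WCE libraries, 2-4h embryos, Lola-I mutant ORC4 embryos and Lola-I rescue embryos. The 31 other samples were not analysed here, so no genotype, age or target was compared. Whole embryos mix all cell types, and strong binding in few cells cannot be told apart from weak binding in many.

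Metallothioneins are small, cysteine-rich proteins that bind copper, zinc and cadmium and protect cells from an excess of these metals. MTF-1 is a zinc finger transcription factor that enters the nucleus under metal load, binds metal response elements (MREs) in metallothionein promoters and activates transcription. In *Drosophila*, MtnA is best known for protection against copper and MtnB for protection against cadmium, and metal-induced metallothionein expression is prominent in the copper cells of the midgut. Lola-I belongs to a family of BTB-domain zinc finger proteins that differ in their DNA-binding ends through alternative splicing.

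The metallothionein genes are compact. They span 327 to 964 bp, with a coding length of 120 to 132 bp in 2 exons, and all lie on chromosome arm 3R of the dm6 build. *MtnA* (FBgn0002868) lies on the minus strand at 3R:9783407-9784370 and faces *CG8500* (FBgn0037754, plus strand, 3R:9784653-9789323), with 282 bases between their starts. *MtnE* (FBgn0262146, minus strand, 3R:20534021-20534704) and *MtnD* (FBgn0053192, plus strand, 3R:20534962-20535301) form a second head-to-head pair, with 257 bases between the starts. *MtnB* (FBgn0002869, minus strand, 3R:20503102-20503746) lies 31086 bp from *MtnE*, measured between starts. *MtnC* (FBgn0038790, plus strand, 3R:20360308-20360634) lies 143310 bp from *MtnB*, measured between starts. *MtnA* lies farther than that from each of *MtnB*, *MtnC*, *MtnD* and *MtnE*. *MTF-1* (FBgn0040305) lies on the plus strand at 3L:9430312-9439490 and has 7 annotated transcripts from 2 starts 5224 bp apart.

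The upstream sequences are shown first, so that the sequence words compared with the Lola-I summits can be seen in place. All are reference sequence from RefSeq Release 6 (dm6), read in the direction of the named gene and ending at the base before a start. Capitals mark the core of the MRE (TGCACNC or TGCGCNC on either strand) and the word AAAGCT or its reverse complement. The first runs from the *CG8500* start to the *MtnA* start (3R:9784371-9784652, minus strand). The next runs from the *MtnE* start to the *MtnD* start (3R:20534705-20534961, plus strand). For *MtnB* only the stretch before the upstream of its 2 starts is shown (3R:20503747-20503868, minus strand), and for *MtnC* (3R:20360058-20360307, plus strand) and *MTF-1* (3L:9430062-9430311, plus strand) the 250 bases before the start. The 2 *MtnB* starts are 128 bp apart. Further *MtnB* cores at -122 and -63, counted from the downstream start, which is its main one, lie between the starts and are not shown.
MtnA: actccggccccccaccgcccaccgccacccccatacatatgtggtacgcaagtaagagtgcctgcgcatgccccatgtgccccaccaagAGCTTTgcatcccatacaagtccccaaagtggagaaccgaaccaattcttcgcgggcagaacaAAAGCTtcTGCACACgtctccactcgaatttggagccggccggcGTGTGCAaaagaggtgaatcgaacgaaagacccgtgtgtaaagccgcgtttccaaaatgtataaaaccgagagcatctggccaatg
MtnD: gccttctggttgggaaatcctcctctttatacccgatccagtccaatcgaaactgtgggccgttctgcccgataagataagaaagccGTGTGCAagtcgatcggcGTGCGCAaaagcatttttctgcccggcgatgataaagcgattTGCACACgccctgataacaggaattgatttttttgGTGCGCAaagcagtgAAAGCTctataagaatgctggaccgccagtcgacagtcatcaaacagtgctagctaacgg
MtnB: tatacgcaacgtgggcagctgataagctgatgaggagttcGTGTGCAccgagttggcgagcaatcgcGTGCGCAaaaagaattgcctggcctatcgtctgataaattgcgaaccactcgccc
MtnC: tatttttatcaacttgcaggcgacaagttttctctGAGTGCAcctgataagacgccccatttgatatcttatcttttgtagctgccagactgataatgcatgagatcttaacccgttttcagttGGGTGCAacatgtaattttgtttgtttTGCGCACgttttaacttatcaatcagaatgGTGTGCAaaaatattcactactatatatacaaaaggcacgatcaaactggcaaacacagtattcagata
MTF-1: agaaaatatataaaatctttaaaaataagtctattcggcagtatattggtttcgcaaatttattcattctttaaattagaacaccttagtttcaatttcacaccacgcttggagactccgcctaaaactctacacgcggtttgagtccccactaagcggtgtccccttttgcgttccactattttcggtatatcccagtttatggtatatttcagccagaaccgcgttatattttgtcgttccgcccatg

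*MtnA* was the only one of the 6 genes with a promoter summit in both replicates, and its peak was among the highest of either list. *MtnD*, *MtnE* and *MTF-1* had promoter summits in replicate 2 alone, and *MtnB* and *MtnC* had none. In the replicate 1 list, 1 of 6 members thus had a summit within 200 bp of a TSS, against 5.50% of the 13968 protein-coding genes. In the replicate 2 list 4 of 6 did, against 30.9% of coding genes, and in both lists 1 of 6 did, against 5.23%. Within 2000 bp the same members were counted, whereas the shares of all coding genes were 11.0% in replicate 1, 47.1% in replicate 2 and 10.6% in both. The members were chosen with these summits known, so the counts are descriptions and were not tested. *MtnD* and *MtnE* share 1 peak, and the 4 members of replicate 2 therefore rest on 4 peaks, 2 of them at *MTF-1*. The summits nearest to the 200 bp limit were those at *MtnA*, at 152 and 155 bp, and no member had a summit between 200 and 2000 bp from a TSS. With a limit of 100 bp, no member had a promoter summit in both lists, against 3.82% of coding genes.

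**Figure D1:**
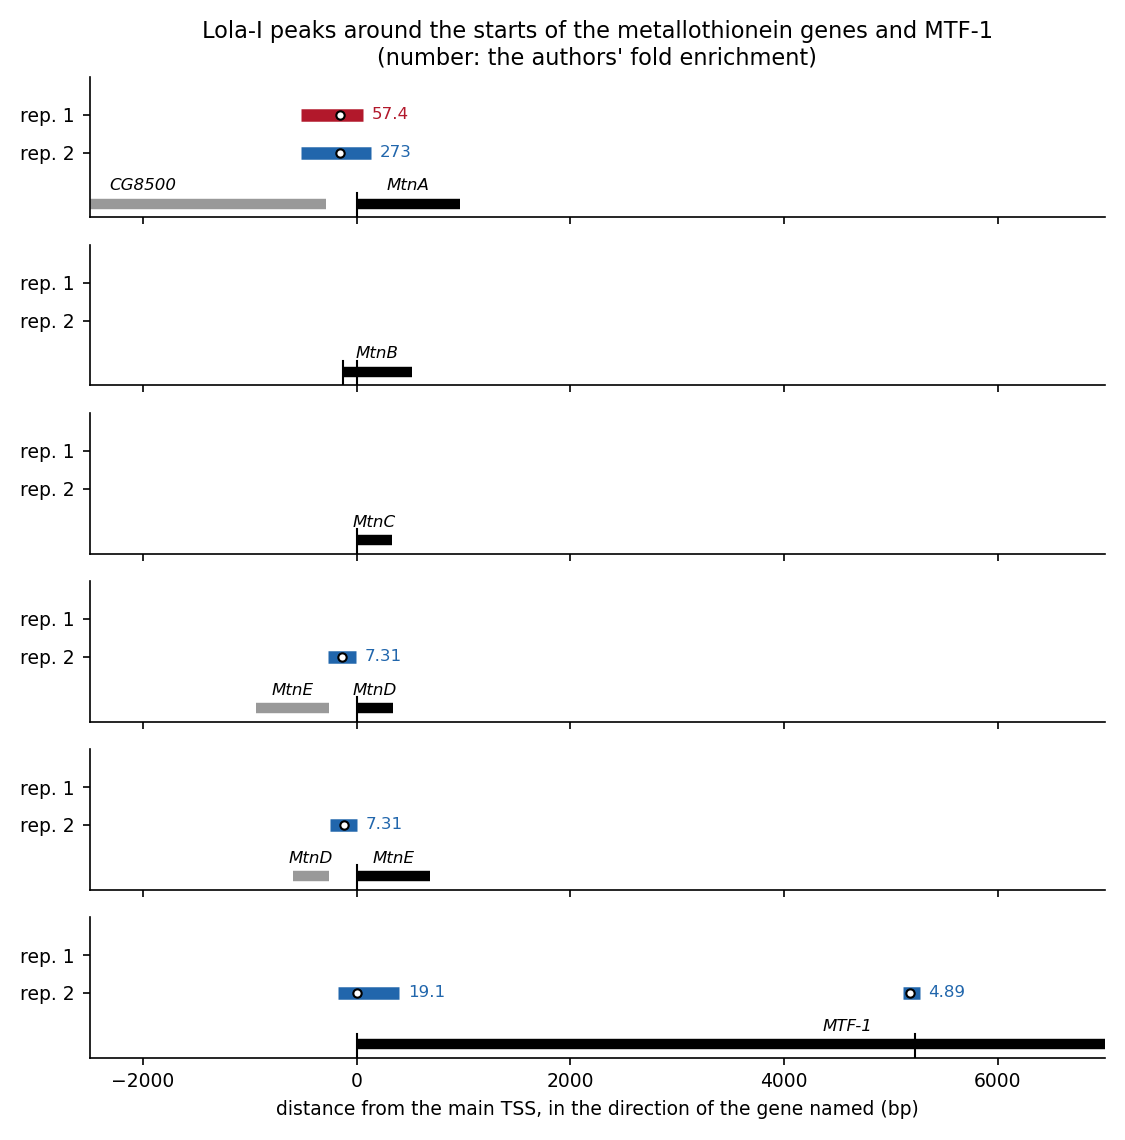
Lola-I peaks around the main start of each member, drawn to scale as the distance in bp in the direction of the gene. Bars are peaks of replicate 1 (red) and replicate 2 (blue) with the summit as a white point and the authors' fold enrichment beside it, black bars are the named gene with a vertical line at each TSS, and grey bars are the facing member or *CG8500* (other genes are not drawn). *MtnA* has peaks of 57.4 and 273, *MtnD* and *MtnE* share a peak of 7.31, *MTF-1* has peaks of 19.1 and 4.89, and *MtnB* and *MtnC* have none.

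The *MtnA* peak spanned 3R:9784310-9784892 in the replicate 1 list and 3R:9784234-9784889 in that of replicate 2. Its fold enrichment, the authors' own ratio of signal over the peak caller's background in that library, was 57.4 in replicate 1 and 273 in replicate 2. Replicate 1 gave it a −log10 p-value of 1825 and replicate 2 of 14045. These values are scaled within each library, so peaks were placed by rank within their list. By score, the peak ranked 14 of 1750 on the chromosome arms in replicate 1 (percentile 99.3) and 22 of 9665 in replicate 2 (percentile 99.8). Among the peaks with a summit within 200 bp of any TSS it ranked 7 of 803 in replicate 1 and 7 of 4635 in replicate 2. The replicates also placed it at the same position: the summits were 3 bp apart, and the shared stretch of 580 bp made up 99.5% of the replicate 1 peak and 88.4% of the replicate 2 peak.

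The *MtnA* summit lay close to the middle of the stretch shared with *CG8500*. It was 152 bp upstream of the *MtnA* start and 131 bp upstream of the *CG8500* start in replicate 1, and 155 and 128 bp upstream in replicate 2. The replicate 1 peak also covered 61 bp of the *MtnA* first exon and 108 bp of the *CG8500* first exon, all in 5′ untranslated sequence. The replicate 2 peak covered 137 bp of *MtnA* exon, 12 bp of it coding, and the same 108 bp of *CG8500*. Position alone therefore does not assign the peak to either gene. A further gene, *asRNA:CR31514*, had its start within 2000 bp, 1829 bp from the replicate 1 summit and 1832 bp from that of replicate 2. Of 548 head-to-head coding pairs with starts 200 to 300 bp apart, 8 had a summit between the starts in replicate 1, or 1.46%, and 134 did in replicate 2, or 24.5%. The *MtnA* and *CG8500* pair had the highest-scoring summit of these pairs in both lists. The median fold enrichment of the pairs with a summit was 5.97 in replicate 1 and 5.09 in replicate 2, and 57.4 and 273, the values of *MtnA*, were the highest.

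The peaks closest to that of *MtnA* in rank were found by the distance between percentile pairs over both lists, among 792 other shared promoter peaks. They were at *mthl10*, a methuselah-like receptor gene, at *nemy*, at *Tpi*, which encodes a glycolytic isomerase, at *Vha68-2*, which encodes a vacuolar ATPase subunit, and at *Ald1*, which encodes a glycolytic aldolase. Their percentiles lay between 99.1 and 99.8 in the replicate 1 list, and between 99.6 and 99.9 in the other. Within 100 bp of their summits on either side each of the 5 held AAAGCT, between 2 and 5 matches, and *mthl10* held 1 MRE core while the other 4 peaks held none. The *MtnA* peak held 2 of each. Of the 793 promoter peaks of replicate 1 found in replicate 2, 75.4% held AAAGCT there and 21.1% an MRE core. AAAGCT was itself taken from earlier results of these lists, so its presence at these peaks is no independent evidence. Closeness here is in rank only, over 2 libraries.

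*MtnD* and *MtnE* shared 1 peak, in replicate 2 alone, at 3R:20534697-20534956. It had a fold enrichment of 7.31, a −log10 p-value of 57.5 and rank 4125 of 9665 (percentile 57.3), close to the middle of its list. Among the 4635 promoter peaks of replicate 2 it ranked 2142, where the median fold enrichment was 5.78. As at *MtnA*, the summit fell near the middle between the starts, 120 bp upstream of *MtnE* and 138 bp upstream of *MtnD*. The peak covered 8 bp of *MtnE* and ended 6 bp before the *MtnD* start, so it lay almost wholly in the stretch between them. Among the 134 coding pairs of this spacing with a replicate 2 summit, the pair ranked 51 by score. The nearest replicate 1 summit was 22.8 kb from *MtnD* and 23.0 kb from *MtnE*, close to the median distance of 23173 bp over coding genes on arms with peaks.

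*MTF-1*, the gene of the regulator, had promoter summits at both of its starts in replicate 2 and at neither in replicate 1. The peak at the first start spanned 3L:9430138-9430710, and its summit fell on the annotated first base. Its fold enrichment was 19.1, its −log10 p-value was 390 and its rank was 1267 of 9665 (percentile 86.9). Of its 573 bp, 399 bp overlapped *MTF-1* exons. The second start is used by 1 of the 7 transcripts. Its peak, at 3L:9435422-9435583, was weaker and narrower (fold enrichment 4.89, rank 5452, width 162 bp). That summit was 43 bp upstream of the *MTF-1* start and 94 bp upstream of *CG42526* on the opposite strand. Farther away, replicate 2 had summits 3604 and 4181 bp upstream of the first start, with fold enrichments of 14.4 and 4.93. The nearer peak lay over starts of *Atat*, which encodes an alpha-tubulin acetyltransferase, and *Shc*, which encodes a signalling adaptor, and the farther one overlapped *Atat* exon sequence. The nearest replicate 1 summit was 6849 bp from an *MTF-1* TSS.

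*MtnB* and *MtnC* stood far from any summit. In replicate 2 the nearest summit was 31078 bp from *MtnB* and 32290 bp from *MtnC*. Over the coding genes the median was 2447 bp, and 4.85% of them were at least as far from a replicate 2 summit as *MtnB* and 4.55% at least as far as *MtnC*. The replicate 2 summit nearest to *MtnB* was the one shared by *MtnD* and *MtnE*. In replicate 1 the nearest summits were 39.1 kb from *MtnB* and 50.9 kb from *MtnC*, distances that 33.2% and 25.3% of coding genes reached or passed. A list without a peak shows only that none was called in that library, since the depth behind the lists is unknown.

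Whether the replicate 2 peaks of *MTF-1*, *MtnD* and *MtnE* could have been found in replicate 1 was described from peaks of like rank. Replicate 1 held 1750 peaks on the arms and replicate 2 held 9665. Of the 200 replicate 2 peaks ranked next to the *MTF-1* peak at its first start, 116 were overlapped by a replicate 1 peak, or 58.0% (95% Wilson interval 51.1 to 64.6%), and 84 were not. Next to the *MtnD* and *MtnE* peak, 5 of 200 were overlapped, or 2.50% (1.07 to 5.72%). Next to the peak at the second *MTF-1* start it was 3 of 200, or 1.50% (0.511 to 4.32%). All 121 peaks around the *MtnA* peak were overlapped (100%, 96.9 to 100%). The missing replicate 1 peaks at *MtnD*, *MtnE* and the second *MTF-1* start were thus shared by nearly all peaks of their rank, and the one at the first *MTF-1* start by a minority. The intervals cover counting over peaks only and say nothing of variation between embryos.

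**Figure D2:**
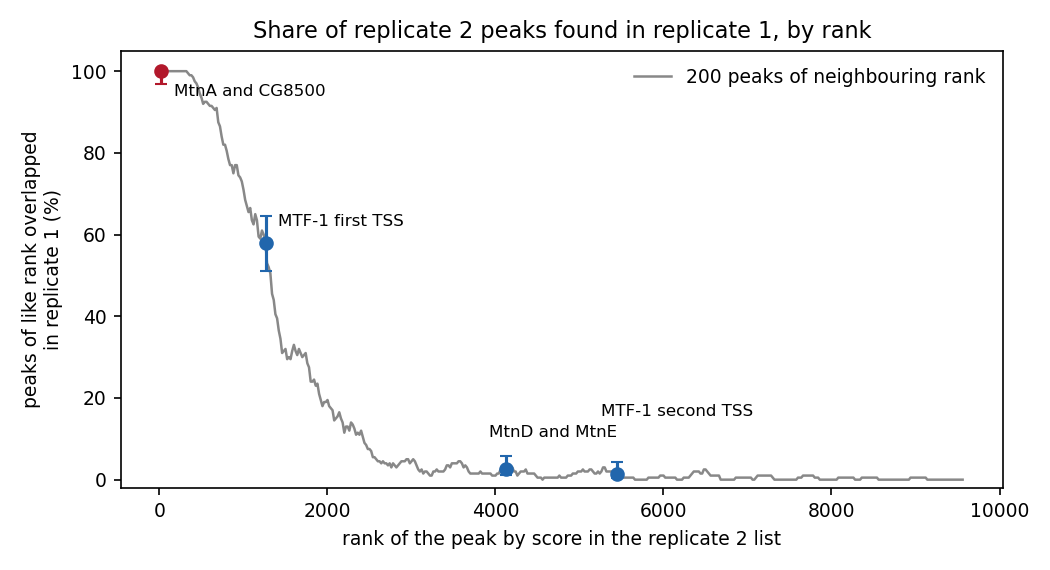
Share of replicate 2 peaks overlapped by a replicate 1 peak (%, y axis) against their rank by score in the replicate 2 list (x axis), as a grey line over 200 peaks of neighbouring rank. Points are the neighbours of the member peaks with 95% Wilson intervals: 100% around the *MtnA* peak, 58.0% at the first *MTF-1* start, 2.50% at *MtnD* and *MtnE* and 1.50% at the second *MTF-1* start.

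MRE cores were counted from 250 bases before to 50 bases after 1 main TSS per gene, on both strands. *MtnA* had 2 cores, *MtnB*, *MtnC*, *MtnD* and *MtnE* had 4 each, and *MTF-1* had none. At least 1 core was present at 18.8% of the 13968 coding promoters, at least 2 at 3.54% and at least 4 at 0.100%, which is 14 promoters. The 4 cores of *MtnD* and of *MtnE* are the same sites, since their windows overlap. Of the other 10 genes with at least 4 cores, 6 had a replicate 2 summit within 200 bp of any TSS, against 30.9% of all coding genes. None had one in replicate 1, where the share of all coding genes was 5.50%. *Ctr1A*, the gene of a copper importer, was among the 10 and had no promoter summit in either list. Its nearest replicate 2 summit was 412 bp from a TSS. This gene is singled out after its value was seen. Among the metallothioneins *MtnA*, with the highest peak, had the fewest cores, and *MtnB* and *MtnC*, with 4 each, had no summit. These are few promoters, chosen with their summits known, and a relation between cores and peaks was not tested. All coding genes were also grouped by summits within 200 bp of any TSS. At least 1 core was present at the main start of 23.8% of those with a summit in both lists. The share was 25.0% of those with one in replicate 2 alone and 16.0% of those with none. For genes with several starts, the promoter searched need not be the one with the summit.

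The word AAAGCT was searched because it was the most enriched 6-mer at Lola-I promoter peaks in earlier results of these same lists, so its presence at a peak is no independent evidence. It occurred 2 times at *MtnA* and 1 time in the stretch shared by *MtnD* and *MtnE*, and not in the windows of *MtnB*, *MtnC* and *MTF-1*. Of all coding promoters, 22.1% held it. Genes with a summit at any TSS in both lists held it at the main start in 66.9% of 731 cases. Those with a summit in replicate 2 alone did so in 20.5% of 3587, and those with none in 19.3% of 9613. At *MtnA* the summits fell between the matches, which begin 193 and 130 bases before the start, and the nearer match was centred 24.5 bp from the replicate 1 summit and 27.5 bp from that of replicate 2. The match at -130 ended 2 bases before an MRE core, in the run AAAGCTtcTGCACAC. At *MtnD* and *MtnE* the match was centred 80.5 bp from the summit, and the nearest MRE core 11.0 bp from it. Neither *MTF-1* summit had either word within 100 bp. Among promoter peaks of replicate 2 alone, 17.0% of 3879 held AAAGCT within 100 bp of the summit and 24.0% an MRE core, against 75.4% and 21.1% of the 793 promoter peaks of replicate 1 found in replicate 2. In a longer window, from -500 to 100, *MtnB* and *MtnC* each held 1 AAAGCT, at -480 and -410. The share of all coding promoters is not given for that window.

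**Figure D3:**
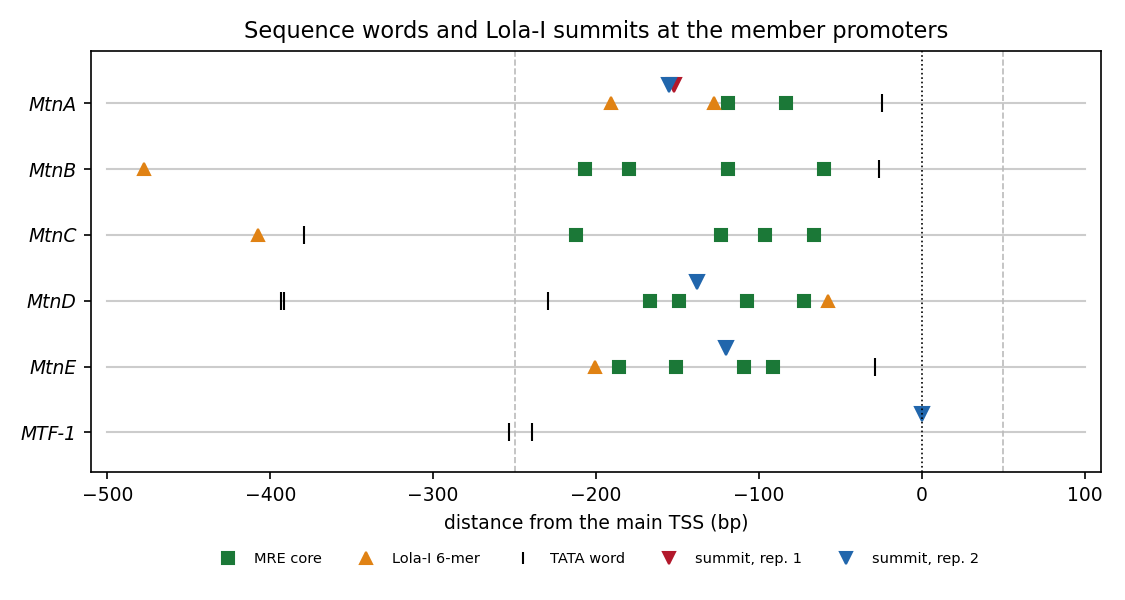
Positions of MRE cores (green squares), the Lola-I 6-mer AAAGCT (orange triangles), TATAAA (black bars) and Lola-I summits (inverted triangles, red for replicate 1 and blue for replicate 2) against the distance from the main TSS in bp for the 6 members. Dashed lines mark the window from -250 to 50, in which *MtnA* holds 2 MRE cores and 2 matches of the 6-mer, *MtnB* and *MtnC* hold 4 cores and no 6-mer, *MtnD* and *MtnE* hold the same 4 cores and 1 match of the 6-mer, and *MTF-1* holds neither.

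The core promoters also differed. A TATAAA in the direction of the gene, starting between -35 and -20, was present at *MtnA* (-27), *MtnB* (-29) and *MtnE* (-31), and not at *MtnC*, *MtnD*, *MTF-1* or *CG8500*. Of all coding genes 7.12% had one at the main start. Grouped by summits at any TSS, the share was 4.79% of genes with a summit in both lists, as at *MtnA*. It was 2.54% of those with one in replicate 2 alone, as at *MtnE*, and 9.01% of those with none, as at *MtnB*. This window was set after the positions were seen, and only the exact word was scored. TATA-like variants and words outside the window were not counted, so a promoter without a match may still hold one. GAGAG, a binding word of GAF, occurred at *MtnA* alone among the 6 members (at -18), against 30.2% of coding promoters. The *MtnA* and *MtnB* transcripts both had TCAGT, a part of the initiator consensus, just after the annotated start (at 5 and 4, respectively) and again at 41 and 42. *MtnC* held it at -162 and -132, away from the start. Anywhere in the window it was thus found at 3 of 6 members and at 52.1% of coding promoters.

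A list of 47 metal-handling and stress genes in 5 groups was set beside the metallothioneins. It includes 4 glutathione genes and 6 stress regulators, so its shares are not those of metal-handling genes alone. In both replicates 2 of the 47 had a summit within 200 bp of a TSS (4.26%, against 5.23% of all coding genes), and in replicate 2 it was 21 (44.7%, against 30.9%). No test was made of this list. The median percentile of the best promoter peak of the 21 genes in replicate 2 was 52.0, against 55.8 for the 4318 coding genes with one.

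The genes found in both replicates were *Zip71B*, which encodes a zinc transporter of the ZIP family, and *cnc*, which encodes the Nrf2-related activator of the oxidative stress response. The *Zip71B* summit was 127 bp upstream of a TSS in replicate 1 (fold enrichment 13.0, rank 276) and 107 bp upstream in replicate 2 (97.2, rank 225). At *cnc* there were 2 promoter summits in replicate 1, with fold enrichments of 15.9 and 16.5, and 4 in replicate 2, the highest at 98.5. Both genes ranked below *MtnA* in each list.

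In replicate 2 alone, 19 further list genes of the 47 had a promoter summit, as did 25.7% of all coding genes. By rank the highest were *sima*, which encodes the hypoxia-inducible factor (fold enrichment 22.2, rank 1468), *Atox1*, the copper chaperone gene (16.1, rank 1535), the transcription factor gene *foxo* (14.1, rank 1544), *foi*, a ZIP transporter gene (9.19, rank 2648), and *Zip99C* (7.93, rank 3407). By group, promoter summits in replicate 2 were found at 5 of 9 copper genes, 7 of 16 zinc genes, 3 of 12 iron and manganese genes, 2 of 4 glutathione genes and 4 of 6 stress regulators, beside 30.9% of all coding genes. These groups are too small to be read against that share. *Ctr1B*, a copper importer gene that MTF-1 activates when copper is scarce, was among the copper genes, with a fold enrichment of 2.28 and rank 9606 of 9665.

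**Figure D4:**
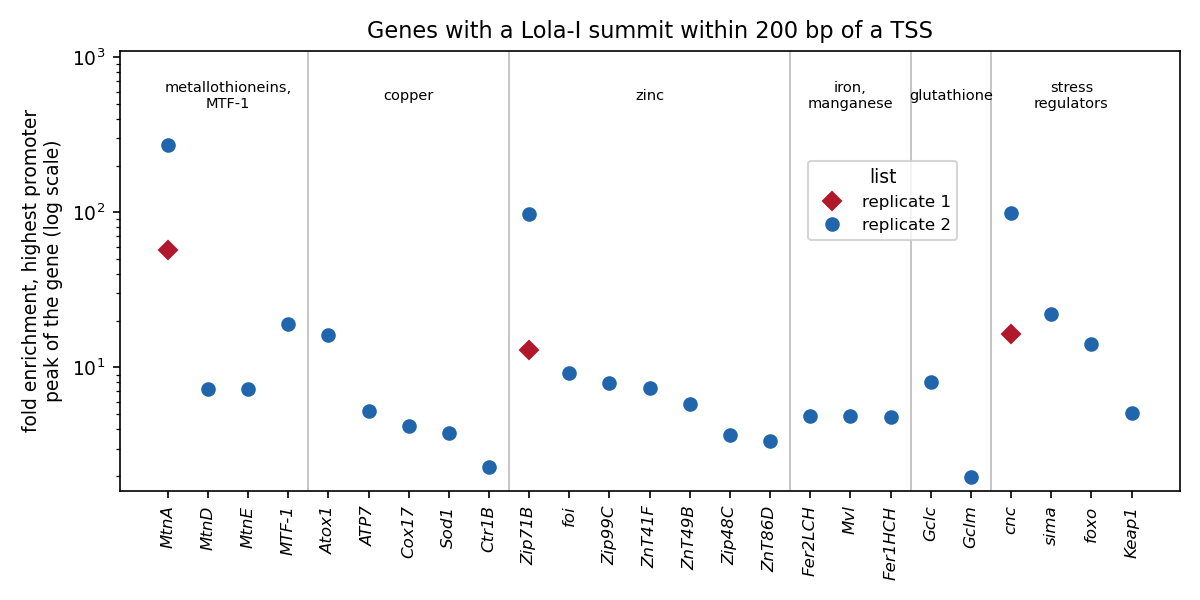
The authors' fold enrichment of the highest promoter peak of each gene (log scale) for the members and the list genes with a summit within 200 bp of a TSS, by group, in replicate 1 (red diamonds) and replicate 2 (blue circles). *MtnA* (57.4 and 273) lies above *Zip71B* and *cnc*, the list genes found in both replicates; *MtnD* and *MtnE* show the same peak, and values of the lists are on scales of their own.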

How the data were processed

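Peaks were called per replicate and are used as deposited. Per the submitters' processing notes, CASAVA 1.8.2, Bowtie 1.0.0 and the dm6 build were used. The peak caller and its version, the control and the filters are not given in the sources used here. In the deposited lists, without header, the score is 10 times the −log10 p-value with decimals dropped, the fold enrichment is a ratio to the background that the caller estimated, the −log10 p-value and −log10 q-value are the caller's, and a further deposited column gives the summit's offset. Depth is unknown.

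Peaks on the 7 chromosome arms were kept (1750 of 1759 and 9665 of 9674). Genes and TSSs came from Ensembl release 115, without transposable elements, and sequence from RefSeq Release 6, both dm6. A gene was counted when a summit lay within 200 bp of any TSS. "In both" means in each list. Peaks overlapped if they shared at least 1 bp. Motifs were exact matches. Python 3.11.15, NumPy 2.4.6, SciPy 1.17.1 and matplotlib 3.10.9 were used, and gene assignment and motif search were tested on simulated data.

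The members, gene list, words and alternatives were chosen with earlier results of these data known. Named were the members, *CG8500*, genes within 2000 bp of a member's summit (1 of which is not reported here), list genes with promoter summits in both lists, the 5 highest in replicate 2 alone, and the 5 peaks nearest in rank to that of *MtnA*. The comparisons with peaks of like rank and with head-to-head pairs were added after the lists had been seen. No contrast exists between conditions, so no p-values are given. Nothing in the labels says that the replicates came from separate collections. The planned comparison of the metallothionein proteins was not run. The alternatives varied the distance, the list, the ranking and the window.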

Additional observations from a re-analysis of the deposited data

How the results depend on the processing

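Counts of members depended most on the list. A promoter summit in both lists was found at 1 of 6 members, against 5.23% of coding genes. With a replicate left out, the count is that of the other list. It was 1 in replicate 1 (5.50% of coding genes) and 4 in replicate 2 (30.9%). Within 2000 bp the member counts were the same. In both lists the count was 0 at 100 bp, and 1 at 500 and 1000 bp. It was also 1 with peak intervals in place of summits, with the higher-scoring 50% of each list and with 1 TSS per gene. Of the 47 genes of the metal and stress list, 2 were counted in both lists, 1 at 100 bp, 4 at 500 bp and 6 at 1000 bp. The shares of all coding genes were 5.23% at 200 bp, then 3.82%, 6.81% and 8.35% at 100, 500 and 1000 bp. With only 1 list used, 2 of the 47 were counted in replicate 1 and 21 in replicate 2. The *MtnA* peak stood at percentile 98.9 (replicate 1) and 99.5 (replicate 2) when ranked on fold enrichment, and at 97.0 and 93.2 when ranked on width. An MRE core was found at 5 of 6 members in each window tried. AAAGCT was found at 3 of 6, and at 5 of 6 from -500 to 100, an alternative added after seeing the data. No paired analysis was possible because the peak lists come from 1 group and no result comes from a test. The lists give no read depth, so a missing peak cannot be told apart from a shallow library.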

Other observations

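A sixth gene of the family, *MtnF* (FBgn0262858), is annotated but was not among the members, and is given here after its values were seen. It had no summit within 2000 bp in either list. The nearest was 4863 bp away in replicate 2 and 27.2 kb away in replicate 1. Its promoter window held no MRE core and no AAAGCT, unlike those of *MtnA*, *MtnD* and *MtnE*.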
